A study of Mus musculus with 38 samples.

Results

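Stretches of mouse liver chromatin that carried acetylation of lysine 27 on histone H3 (H3K27ac) but no called methylation of lysine 4 were described. A region belonged to the set when a deposited male or female H3K27ac peak did not overlap, by even 1 bp, any peak of mono-methylated (H3K4me1) or tri-methylated (H3K4me3) lysine 4 in the male or female lists. Of the male H3K27ac peaks, 3141 of 40903 (7.68%) met this rule, and of the female peaks 2651 of 38306 (6.92%). Joining overlapping peaks gave 4562 regions of 43542 merged H3K27ac regions in all (10.5%). They covered 5.76 Mb, against 70.0 Mb for the 26622 merged regions whose peaks met H3K4me1 alone and 64.4 Mb for the 14419 whose peaks met H3K4me3. Those 2 sets are the comparison sets.

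The tissue was whole liver of outbred CD-1 mice from Charles River, male and female, 8 weeks old and given no treatment that the labels record. Chromatin immunoprecipitation and sequencing (ChIP-seq) had used 3 male and 3 female libraries for H3K27ac, 4 male and 3 female libraries for each H3K4 mark, 2 of each sex for H3K36me3 and for H3K9me3, and 3 of each sex for H3K27me3. All libraries of a mark and sex carried the same deposited list, so each list was 1 value per region with no spread between animals. Background came from 1 male library made with normal rabbit IgG, from CD-1 mice 7 to 8 weeks old of an earlier STAT5 study, whose livers had been taken at a peak of STAT5 activity or between pulses; the labels do not say which applied to it. Tags in H3K27ac peaks came to 19253391 for males and 12837285 for females. In bulk tissue, fewer cells of a type and less signal per cell cannot be told apart.

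Acetylated lysine 27 marks active promoters and enhancers. H3K4me3 is the usual companion at promoters and H3K4me1 at enhancers, so an acetylated site is commonly read together with 1 of the lysine 4 marks. H3K36me3 is laid down along transcribed gene bodies, H3K27me3 is the mark of Polycomb repression and competes for the same lysine as acetylation, and H3K9me3 marks heterochromatin.

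Of the regions, 52 held an annotated gene start, placed as described next, where H3K4me3 would be the usual mark. Sequences are shown for a few of these starts, all at genes of immune cells or responses. These genes were picked after their values were seen and show no share of any cell type. Other starts in the set included those of Mup7, Abca9 and long non-coding RNAs. Starts were placed in the files' build, mm9, where an IgG read aligned by the authors equalled a stretch of a single RefSeq promoter sequence (GRCm38.p6). This placed 13092 starts of 12176 genes, and 99.7% of the matching reads lay on the chromosome and strand that RefSeq names. Each line gives the 250 bases before a start, 5′ to 3′ on the gene's strand, with mm9 coordinates. Of 15 short motifs searched on both strands, matches are in capitals: the STAT5 letters TTCCNGGAA, which also meet the looser STAT letters TTCNNNGAA, and the IRF letters (GAAA, any 2 bases, GAAA) in Tgtp1, C/EBP TTGCNNAA and PU.1 GAGGAAGT in Ifi47, and AP-1 TGANTCA in Il1a.
Ptprc, chr1:140071884-140072133, minus strand: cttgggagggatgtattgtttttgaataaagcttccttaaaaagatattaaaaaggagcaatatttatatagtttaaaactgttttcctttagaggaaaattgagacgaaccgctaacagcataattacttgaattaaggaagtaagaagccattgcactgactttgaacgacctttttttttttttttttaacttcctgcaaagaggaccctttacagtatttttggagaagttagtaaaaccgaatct
Tfec, chr6:16848443-16848692, minus strand: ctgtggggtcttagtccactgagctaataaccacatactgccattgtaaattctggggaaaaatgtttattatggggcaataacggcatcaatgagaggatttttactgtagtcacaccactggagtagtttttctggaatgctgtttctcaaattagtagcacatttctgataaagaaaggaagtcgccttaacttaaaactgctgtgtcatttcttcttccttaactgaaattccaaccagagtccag
Tgtp1, chr11:48805750-48805999, minus strand: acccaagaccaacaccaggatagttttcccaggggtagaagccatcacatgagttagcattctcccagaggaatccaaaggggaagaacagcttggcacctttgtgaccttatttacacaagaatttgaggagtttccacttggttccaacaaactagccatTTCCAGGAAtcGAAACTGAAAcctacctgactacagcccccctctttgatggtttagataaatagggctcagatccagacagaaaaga
Ifi47, chr11:48889840-48890089, plus strand: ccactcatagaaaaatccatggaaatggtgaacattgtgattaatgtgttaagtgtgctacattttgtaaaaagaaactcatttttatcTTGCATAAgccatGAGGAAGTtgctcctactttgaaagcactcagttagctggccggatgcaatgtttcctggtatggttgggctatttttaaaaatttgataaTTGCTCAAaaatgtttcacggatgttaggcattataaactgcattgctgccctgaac
Il1a, chr2:129135710-129135959, minus strand: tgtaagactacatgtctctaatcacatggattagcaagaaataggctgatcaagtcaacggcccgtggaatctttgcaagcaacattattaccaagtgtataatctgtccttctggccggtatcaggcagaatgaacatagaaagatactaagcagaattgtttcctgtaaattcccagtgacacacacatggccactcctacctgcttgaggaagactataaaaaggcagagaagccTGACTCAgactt
Ptprc encodes CD45, the tyrosine phosphatase of blood cells, Tfec a transcription factor of macrophages, Tgtp1 and Ifi47 interferon-inducible GTPases, and Il1a the cytokine interleukin 1 alpha. Of these stretches, 213 of the 250 bases for Ptprc and all 250 for the other genes lay inside the acetylated region. The IRF letters stood in 2.98% of all RefSeq promoter stretches of this length, the STAT5 letters in 0.913%, the PU.1 letters in 2.44%, the C/EBP letters in 9.56% and the AP-1 letters in 6.75%. Among the 54 placed starts inside members, 2 held the IRF letters, 1 the STAT5 letters, 2 the PU.1 letters, 5 the C/EBP letters and 6 the AP-1 letters. A match describes letters only and does not show binding.

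Away from starts no mm9 genome was used, so sequence was read from IgG reads that lay inside a region, joined where they overlapped. The longest such run is shown for 3 regions on which the results below turn: the best-scoring region that stood far from any lysine 4 mark, the strongest region called male-biased and the region with the most female-biased ratio. Capitals mark the PPAR letters, a pair of AGGTCA copies 1 base apart as bound by nuclear receptors of that type, here on the opposite strand.
Isolated region, chr2:85908826-85908882, plus strand: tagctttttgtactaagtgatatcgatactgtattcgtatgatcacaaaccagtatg
Male-called region, chr10:127700958-127701020, plus strand: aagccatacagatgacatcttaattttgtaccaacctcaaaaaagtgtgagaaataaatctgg
Female-called region, chr5:146528764-146528798, plus strand: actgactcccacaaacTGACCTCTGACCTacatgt
The female-called run of 35 bases came from 1 read in the Cyp3a gene cluster. The other 2 runs held none of the 15 motifs, which says nothing of the rest of each region.

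The members were short and weak peaks. Because the lists themselves chose the members, the next values are a description with no test. In the male list the median width of member peaks was 1057 bp (quartiles 847 and 1468), against 1900 bp for peaks with H3K4me1 alone and 2885 bp for peaks with H3K4me3. In the female list it was 1024 bp (quartiles 824 and 1379), against 1810 and 2706.5 bp. Median tags per peak were 57 in the male list and 48 in the female list, against 144 and 115 with H3K4me1 alone. Set per length, the median was 53.6 tags per kb in the male list (quartiles 49.3 and 60.3), against 73.2 with H3K4me1 alone and 159 with H3K4me3. The female list gave 47.7, 62.3 and 114 tags per kb in the same order. Members thus sat near the bottom of the range at which a peak was listed at all, and their quartiles lay below the median of either comparison set in both sexes.

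Scores and fold enrichments are the authors' own values per peak. Median fold enrichment of members was 4.78 in the male list and 4.96 in the female list. The better-scoring 50% of each list held 103 of the 3141 male members (3.28%, 95% Clopper-Pearson interval 2.68 to 3.96) and 106 of the 2651 female members (interval 3.29% to 4.82%). For peaks with H3K4me1 alone that share was 36.3% in males and 35.6% in females. The deposited false discovery rate had a median of 26.8% for male and 21.0% for female members, and exceeded 10% in 66.2% and 65.4% of them. No member reached 1%: the lowest rates were 1.06% and 1.23%. Few H3K27ac peaks of any kind did, 278 of 40903 in the male list and 91 of 38306 in the female list. Even peaks with H3K4me3 had median rates of 1.5% and 1.78%. Intervals cover counting error only, since sequencing reads without molecular identifiers are not independent molecules.

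**Figure D1:**
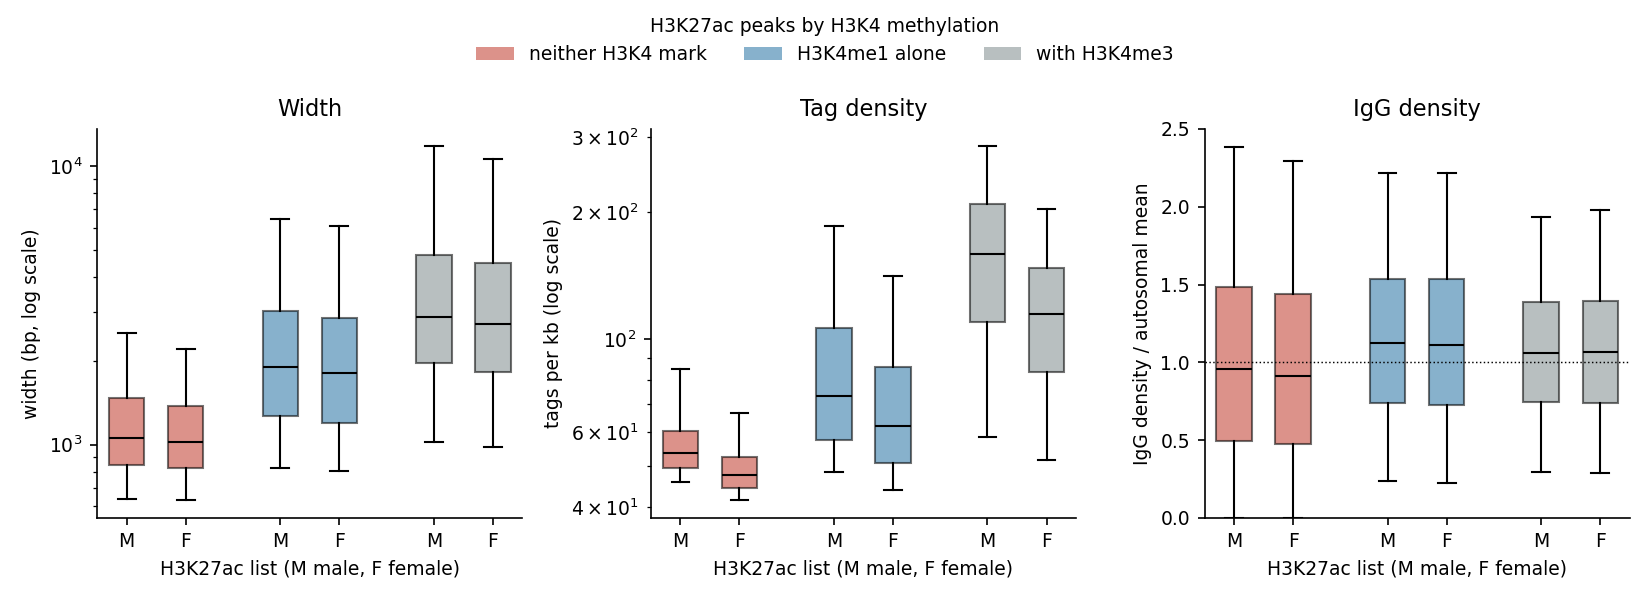
Width, tags per kb and IgG density relative to the autosomal mean for H3K27ac peaks of the male (M) and female (F) lists, by the H3K4 marks they overlapped. Boxes span the quartiles with the median as a line and whiskers run from the 5th to the 95th percentile of peaks; members are the narrowest and least dense peaks (median width 1057 and 1024 bp), while their IgG medians (0.957 and 0.914) lie just under 1.

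Many members lay close to the rule's edge. A gap of 1 to 100 bp separated 267 member peaks from an H3K4 peak, and 243 H3K27ac peaks outside the set were left out for an overlap of at most 100 bp. The closest members touched an H3K4 peak with 0 bases between them, for example the 740 bp male peak with 34 tags at chr1:84414208-84414947. The closest peaks outside it shared 2 bases with an H3K4 peak, for example the 1143 bp female peak with 65 tags at chr4:59325077-59326219. The median gap from a merged region to the nearest H3K4 peak was 1983.5 bp (quartiles 621 and 6539.5), and 34.7% of regions lay within 1 kb of one. Only 171 regions (3.75%) were more than 50 kb away.

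Median background at the members was close to the autosomal mean. The IgG library held 11201113 aligned reads of 35 bases, and its autosomal mean was 4.38 reads per kb. Relative to that mean, the median density in member peaks was 0.957 in the male list (quartiles 0.493 and 1.48) and 0.914 in the female list (0.472 and 1.44). Peaks with H3K4me1 alone had medians of 1.12 and 1.11, and peaks with H3K4me3 1.06 and 1.07. Split by score, the order against H3K4me3 turned, but beyond the interval of the members' median only for males in the worse-scoring 50%. There members had 0.949 (0.907 to 0.983) in males and 0.903 (0.869 to 0.937) in females, against 0.861 and 0.899. In the better-scoring 50% they had 1.0998 (1.003 to 1.216) and 1.115 (0.934 to 1.286), against 1.08 and 1.09. Signal was still unlike there: members had 91.3 (male) and 69.4 (female) tags per kb, against 175 and 126 with H3K4me3. The spread within the members was wide, since a peak of 1 kb holds about 4 IgG reads. No IgG read fell in 262 of 3141 male members (8.34%, 7.40 to 9.36) and 221 of 2651 female members (8.34%, 7.31 to 9.45), against 2.62% and 2.96% of the wider peaks with H3K4me1 alone. A density above 2 was found for 326 male members (10.4%, 9.33 to 11.5) and 244 female members (9.20%, 8.13 to 10.4), against 8.76% and 8.81%. With 1 IgG library there was no spread between libraries to set these values against.

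The 5 highest densities belonged to weak peaks found in 1 list only. At chr17:24975759-24976837, near Hagh, the density was 5.08 times the mean with 24 IgG reads, 66 male tags and a fold of 4.11. At chr14:55375393-55376102 it was 4.82 times with 15 reads. The others lay at chr3:81760569-81762847 (4.21 times, 16.8 kb from the start of Tdo2, the liver enzyme that opens the tryptophan ring), chr6:119311072-119311961 (4.10 times) and chr5:151372036-151373148 (4.10 times, in the female list). The first and the last 3 lay on H3K36me3 and the second on H3K27me3.

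H3K36me3 islands lay under 1606 of the 4562 regions (35.2%, 33.8 to 36.6). The same islands, joined over both sexes, covered 14.2% of the autosomes. The share was lower than for regions with H3K4me1 alone (43.5%) and for regions with H3K4me3 (46.7%), whose intervals did not meet that of the members. Width bore on this: among regions of 1000 to 2000 bp it was 35.6% (33.6 to 37.7) of members, 40.6% (39.6 to 41.5) of regions with H3K4me1 alone and 13.1% (11.9 to 14.4) of regions with H3K4me3. The order against H3K4me3 therefore turned with width, and the order against H3K4me1 alone did not. When at least 50% of a region's bases had to be covered, the shares were 33.5%, 36.5% and 12.9%. An island in both the male and the female list was found for 29.8% of members, 34.3% of regions with H3K4me1 alone and 32.7% of regions with H3K4me3.

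Most of the overlapping members lay wholly inside an island. Of them, 1433 were fully covered, with a median distance of 7.07 kb from their centre to the island's edge in islands of 30.4 kb (median), against 6.57 and 29.2 kb for regions with H3K4me1 alone. The islands under members were among the wider ones: 22.7 kb (median) in the female list, against 10.8 kb for all female islands. A wide island has more room to meet a peak, so its width is not independent of the overlap. Their median fold over control was 2.70 in males and 2.52 in females, against 2.35 and 2.26 for all islands. H3K36me3 islands had been joined across gaps of 800 bp, so an overlap does not place both marks on the same nucleosome or in the same cells.

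H3K27me3 islands lay under 918 members (20.1%, 19.0 to 21.3), against 6.78% (6.48 to 7.08) of regions with H3K4me1 alone and 15.9% (15.3 to 16.5) of regions with H3K4me3. These islands covered 29.5% of the autosomes. Among regions of 1000 to 2000 bp they lay under 415 of 2075 members, 8.36% of regions with H3K4me1 alone and 34.1% with H3K4me3, so the order against H3K4me3 again turned with width. H3K9me3 islands, which covered 13.1% of the autosomes, lay under 268 members (5.87%, 5.21 to 6.60), against 2.10% and 3.78%. At 1000 to 2000 bp the order against H3K4me3 turned for this mark too, with 5.16% (4.24 to 6.20) of members against 2.51% with H3K4me1 alone and 6.97% (6.06 to 7.98) with H3K4me3. Both kinds of island had been joined across gaps of 2400 bp. None of the 3 marks lay under 2005 members (43.95%), H3K36me3 alone lay under 1535, H3K27me3 alone under 729, and H3K27me3 with H3K9me3 under 160. In the worse-scoring 50% of each list, 35.3% of members lay on H3K36me3, against 43.3% with H3K4me1 alone and 14.3% with H3K4me3, and 20.3% lay on H3K27me3, against 7.51% and 37.4%.

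**Figure D2:**
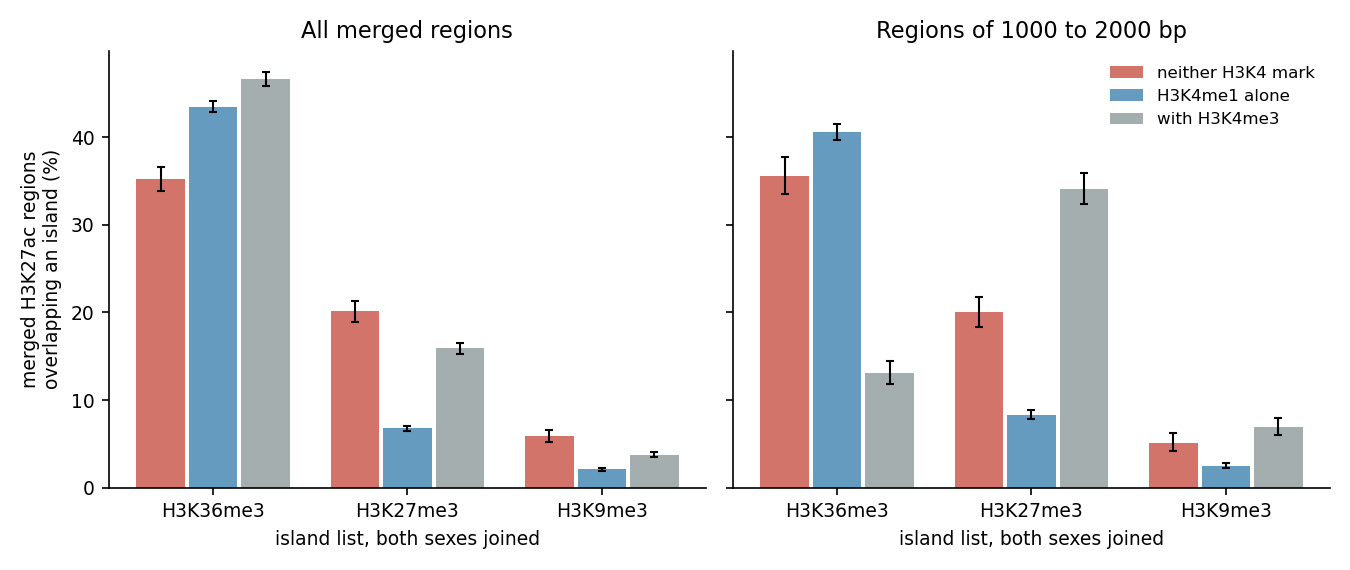
Share of merged H3K27ac regions that overlapped an H3K36me3, H3K27me3 or H3K9me3 island by at least 1 bp (%), for all regions (left) and for regions of 1000 to 2000 bp (right). Error bars are 95% Clopper-Pearson intervals over regions; members sit below H3K4me1-alone regions for H3K36me3 (35.2% against 43.5%) and above them for H3K27me3 (20.1% against 6.78%) in both panels.

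The makeup of the set differed with distance from other acetylated chromatin. This split was made for members only, so whether the shares by distance are particular to members was not tested. An H3K27ac peak with a lysine 4 mark overlapped (in the list of the other sex) or lay within 1 kb of 1581 members (34.7%), between 1 and 50 kb of 2610 (57.2%), and more than 50 kb from 371 (8.13%). H3K36me3 was found under 38.6% (36.2 to 41.1), 37.2% (35.3 to 39.1) and 6.74% (4.41 to 9.79) of these in turn. H3K27me3 went the other way, at 8.92% (7.56 to 10.4), 22.6% (21.0 to 24.2) and 50.7% (45.5 to 55.9). H3K9me3 rose in the same order, from 2.59% to 6.09% and 18.3% (14.5 to 22.6). Relative IgG medians of the 3 sets were 0.952, 0.936 and 0.900, and widths 1068, 1070.5 and 1045 bp, so neither moved with distance as the marks did.

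**Figure D3:**
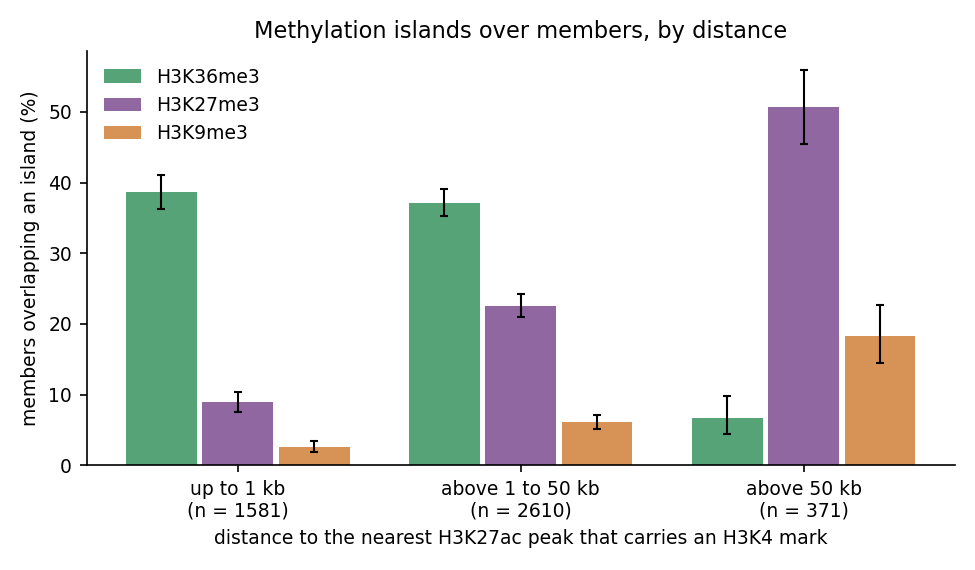
Share of member regions overlapping H3K36me3, H3K27me3 or H3K9me3 islands (%) by distance to the nearest H3K27ac peak that carried an H3K4 mark, with 95% Clopper-Pearson intervals. H3K36me3 falls from 38.6% within 1 kb to 6.74% beyond 50 kb, and H3K27me3 stands at 8.92% and 50.7%. The comparison sets were not split by distance.

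Sharing between the sexes was limited. Of the merged regions, 1160 (25.4%, 24.2 to 26.7) came from both H3K27ac lists, 1955 from the male list alone and 1447 from the female list alone. The same share was 59.7% for regions with H3K4me1 alone and 93.7% for regions with H3K4me3. Within the worse-scoring 50% of each list it was 23.0% of members against 33.7% and 42.0%, and within the better-scoring 50% it was 21.5% of 172 members against 59.4% and 90.6%. Counting a partner of any kind, 1348 male member peaks (42.9%) overlapped a female H3K27ac peak and 1496 female member peaks (56.4%) overlapped a male one. Regions in both lists lay on H3K27me3 in 25.1% (22.6 to 27.7) of cases, against 318 of 1955 (16.3%) of those in the male list alone and 309 of 1447 (21.4%, 19.3 to 23.6) of those in the female list alone, an interval that met that of regions in both lists.

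Few members carried a called sex difference. The shares below are over all members of a list, and calls were not counted apart for members without a partner. In the authors' deposited table a peak was called sex-biased at a log2 male over female ratio of at least 1 in size and p under 0.001, a comparison of pooled libraries. The male list held 58 male-called members (1.85%, 1.40 to 2.38), where 1.74% of the whole list was so called in the authors' deposited table, so that share was near the background; peaks of that list with H3K4me1 alone had 2.46% (2.27 to 2.67). It held 6 female-called members (0.191%), where the whole list had 0.861% in the authors' deposited table. The female list held 147 female-called members (5.55%, 4.70 to 6.49), against 3.02% of that whole list and 4.08% (3.82 to 4.36) of its peaks with H3K4me1 alone in the authors' deposited table. It held 2 male-called members (0.0754%), where the authors' deposited table called 0.608% of the whole list. Being listed in a sex already favours a ratio to that side, so these counts are described and not tested.

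The authors' deposited table gave a median log2 ratio of -0.06 over male-list members and -0.50 over female-list members. For members with a partner in the other list the medians in the authors' deposited table were alike, -0.28 (1348 peaks) and -0.32 (1496 peaks). Without a partner they were 0.12 (1793 peaks) and -0.76 (1155 peaks) in the authors' deposited table. Peaks with H3K4me1 alone and a partner had a median of -0.15 in either list of the authors' deposited table. All H3K27ac peaks with a partner had a median of -0.06 in either list of the authors' deposited table. Members with a partner thus leaned toward the female side in both lists. Peaks with H3K4me1 alone and a partner did so too, by less, so the lean is not particular to members. Most of the members with a partner were the same places, since 1186 male and 1204 female member peaks overlapped a member of the other list. The 2 medians of members with a partner are therefore not independent. How the authors scaled the sexes is unstated in the labels, and its part in this lean was not tested.

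**Figure D4:**
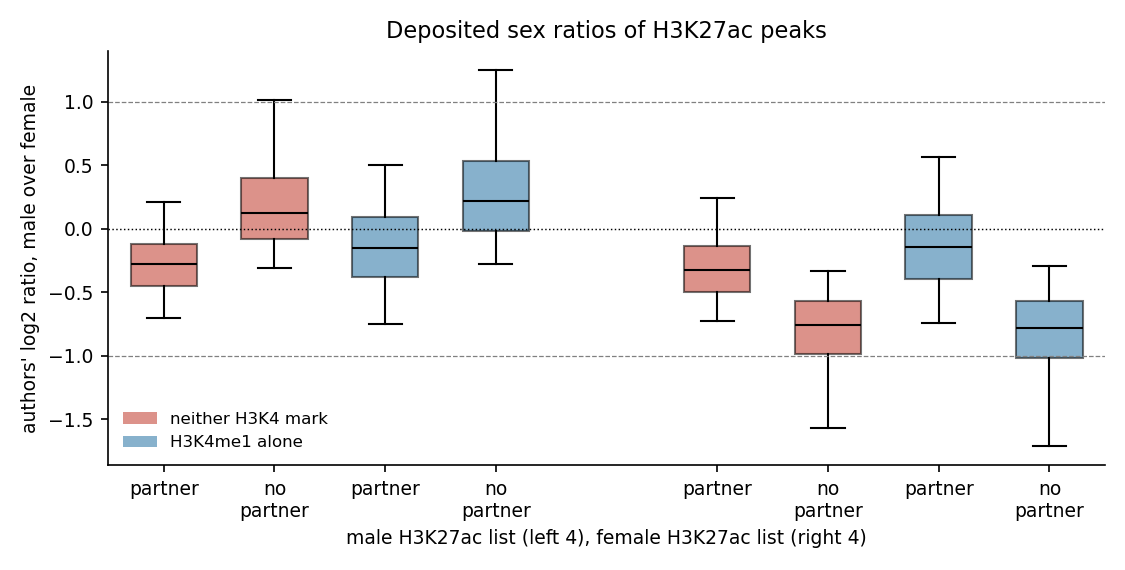
Log2 male over female ratios of the authors' deposited table for members and for peaks with H3K4me1 alone, split by whether a peak of the other sex overlapped. Boxes span quartiles, whiskers the 5th to 95th percentiles of peaks, and dashed lines mark the log2 size of 1 used for calls; members with a partner have medians of -0.28 and -0.32, and female-list members without a partner lie lowest, at -0.76.

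Other marks around the called members moved in part with the call. Neighbouring regions can draw on the same H3K4me1 peak or island, so the counts below are not of independent cases. Among the 60 male-called regions, 35 had an H3K4me1 peak within 10 kb, and for 24 of these the authors' deposited table gave a ratio above 0. Among the 149 female-called regions, 126 had such a peak, and for 81 of these the authors' deposited table gave one below 0. Over all members, the nearest H3K4me1 peak within 10 kb had a ratio above 0 in 1958 of 3686 cases in the authors' deposited table. H3K27me3 islands over female-called regions leaned toward males, with a mean log2 above 0, in 28 of 38 cases of the authors' deposited table, where 387 of all 918 members on H3K27me3 did. For male-called regions on H3K27me3 the authors' deposited table gave a value above 0 in 1 of 9 cases. For H3K36me3 over female-called regions the authors' deposited table gave a value below 0 in 27 of 37 cases, against 697 of 1606 for all members on that mark.

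The regions with the most extreme ratios lay in gene clusters known for sex-biased liver expression on the female side. The lowest log2 ratio in the authors' deposited table, -4.93, belonged to the 774 bp female peak at chr5:146528335-146529108, with 43 tags, a fold of 9.03 and 3 IgG reads, whose run is printed above. A second peak of the cluster, chr5:146354472-146355280, lay 8.87 kb from the start of Cyp3a41b and had 57 tags, and the authors' deposited table gave it a log2 ratio of -3.98. Both stood between Cyp3a41b and Cyp3a44, with Cyp3a41a between these in RefSeq's GRCm38.p6 gene order; these cytochrome P450 genes are near-identical copies, so reads could be split among them. The peak at chr7:14263667-14264505 lay 54.4 kb from Sult2a5, in a cluster of sulfotransferase genes, with 46 tags, on H3K27me3, and the authors' deposited table gave it -4.04. On the male side the highest ratios in the authors' deposited table were 3.53 at chr2:148791596-148792820 (68 tags), 3.01 at chr17:3378327-3379584 (76 tags) and 2.84 at chr3:54297144-54298311 (60 tags, no IgG read). None of these 3 lay on H3K36me3, H3K27me3 or H3K9me3, and the nearest placed start to any of them was 28.8 kb away.

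Some of the best-scoring members carried no sex call. At chr12:73589622-73592950, between Rtn1 and Pcnx4, 3329 bp held 761 male and 447 female tags with none of the 3 other marks. The authors' deposited table gave it a log2 ratio of 0.24.

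The narrowest of the strong regions had the highest fold of all members. At chr12:104968119-104969203, 1085 bp held 306 male and 254 female tags at folds of 74.0 and 68.8, with 3 IgG reads, on H3K36me3. It lay between the starts of Ppp4r4 and Gm31271, an interval that in RefSeq's GRCm38.p6 order holds 11 coding genes of the Serpina family of plasma protease inhibitors. The Serpina1 genes among them are near-identical copies, and how reads were shared among those was not tested. The region at chr2:85908324-85911756 stood alone: 3433 bp with 494 male and 234 female tags, folds of 24.4 and 15.9, 3.11 kb before the start of the olfactory receptor gene Olfr1036. Its nearest H3K4 peak was 814159 bp away, none of the 3 other marks covered it, and its IgG density was 0.865 times the mean. The placed start on its other side was that of Olfr1032, and the only coding genes between them in RefSeq's GRCm38.p6 order were Olfr1033 and Olfr1034.

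Of the best-scoring members, 2 carried a call. The region chr10:127698704-127701532 was found in the male list alone, with 363 tags and a fold of 16.5, and the authors' deposited table gave it a log2 ratio of 1.87. It lay between the starts of Apon and Stat2, with the apolipoprotein gene Apof between them in RefSeq's GRCm38.p6 order. The region chr3:65678708-65682636 had 212 male and 412 female tags and was called female-biased, with a log2 ratio of -1.02 for its male peak in the authors' deposited table. It was 1 of few members on both H3K36me3 and H3K27me3, a pair found under 25 regions without H3K9me3. Without a call, the region chr12:106075548-106081275 held 539 female tags over 5728 bp between Dicer1 and Syne3 and overlapped or abutted another H3K27ac peak. Of the wide regions, chr19:55181759-55191106 (9348 bp, 975 male and 801 female tags) lay between 2 placed starts of Gpam, the first enzyme of glycerolipid synthesis, wholly on H3K36me3. The region chr13:37777510-37784407 (6898 bp) held 1060 male and 642 female tags with none of the 3 marks, and chr8:107581083-107587048 (5966 bp) lay partly on H3K36me3 in the carboxylesterase cluster, 20.6 kb from Ces3b, with IgG at 2.03 times the mean. One more wide region, of 6663 bp with 467 male tags, lay on chromosome 18, where no starts were placed.

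Members were mostly solitary. Joined within 10 kb they made 3718 groups, of which 3094 held a single region. The largest group, chr4:60154722-60173176, held 11 regions, 10 of them in both lists, with a median width of 409 bp, 622 male and 466 female tags. It lay between Mup7 and Mup10 in the cluster of major urinary protein genes, pheromone carriers made in bulk by male liver, whose copies are nearly identical. IgG density was 0.396 of the autosomal mean over the whole stretch and 0.244 within the regions, so few background reads had been placed there either; the part of read placement in these narrow peaks was not tested. Ratios in the authors' deposited table ran from -0.71 to 0.50 in the male list and from -0.67 to 0.69 in the female list.

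The second group, chr13:24462810-24526149, held 10 regions over 63.3 kb beyond the start of Cmah, an enzyme of sialic acid synthesis, and all 10 lay on H3K36me3. Only 1 was in both lists. The group's 839 male and 283 female tags are sums over largely different peaks, so they do not measure a sex difference. Ratios in the authors' deposited table ran from 0.01 to 0.50 in the male list and from -0.26 to 0.74 in the female list. The third, chr1:89931869-89948077, held 7 regions, 5 in both lists, 19.3 kb before the start of Ugt1a9 in the Ugt1a glucuronosyltransferase locus. Its IgG density was 0.465 of the mean, and none of the regions lay on H3K36me3 or H3K27me3.

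Gene starts were rare among the members. Of 4419 members on chromosomes with placed starts, 52 held one (1.18%, 0.880 to 1.54), against 1.56% (1.42 to 1.72) of regions with H3K4me1 alone and 35.1% (34.3 to 35.9) of regions with H3K4me3. A wider region holds a start more readily, and by the region's centre the order turned: it lay within 1 kb of a start for 1.49% (1.16 to 1.90) of members and 1.23% with H3K4me1 alone, with intervals that met. The median distance to a placed start was 43.7 kb, against 40.0 and 16.0 kb. Since fewer than 50% of RefSeq genes were placed, these are distances to placed starts only. Of the 52, 28 were at protein-coding genes, of which 11 were in both lists, 9 lay on H3K27me3 and 6 on H3K36me3.

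The genes named next, 11 of the 28, were picked after their values were seen and show no share of any cell type; the others included Mup7 and Mup18, which hepatocytes make, and Abca9, Gramd1c, Fbxw10 and Tmc1. The Ptprc region, chr1:140070737-140072096, had 79 male and 57 female tags, lay on H3K27me3 and was 33564 bp from the nearest H3K4 peak. The Tfec region, chr6:16846373-16849072, had 200 and 175 tags and was 59330 bp from one. Trim30a and Trim30d, interferon-inducible ubiquitin ligase family members, had 163 male and 144 female tags and 43 female tags in turn. Tgtp1 had 131 and 127 tags, and Ifi47 115 tags in the male list alone. Il1a had 69 male tags only 14 bp from an H3K4 peak. Tek, the angiopoietin receptor of endothelium, had 34 female tags 61 bp from one, and Naip2, a sensor of bacterial proteins, 83 female tags on H3K27me3. Cd36, a fatty acid receptor, had 161 and 175 tags on H3K36me3 with IgG at 2.96 times the mean, and Tfpi, the inhibitor of tissue factor, 265 and 201 tags. Among these 11 genes only Trim30d had a ratio past the size used for calls in the authors' deposited table, at a log2 of -1.89; the others ran from -0.79 to 0.30.

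Genes of short lists were looked up for members near their starts. Among 13 placed plasma protein genes, all 13 had an H3K27ac region with H3K4me3 within 10 kb, and none had a member that close. Such a region with H3K4me3 lay within 10 kb of 65.2% of all 7941 placed protein-coding genes. A list of other tissues had only 1 placed gene, so the labelled tissue could not be checked with it. Of 13 placed genes of hepatocyte metabolism, 3 had a member within 10 kb: Acsl1 at 8574 bp, Cyp1a2 at 7336 bp and Sult1a1 at 7458 bp from the start. Of 10 placed hepatocyte transcription factor genes, 1 did, the xenobiotic receptor gene Nr1i2 at 9294 bp. Of 5 placed marker genes of other liver cells, 1 did, Stab2 of sinusoidal endothelium at 6856 bp, and 2 of the 5 had a region with H3K4me3. Over all 7941 placed protein-coding genes the share with a member within 10 kb was 5.93%. Within 50 kb, a member lay near 7 of the 13 plasma protein genes, 8 of the 13 metabolism genes, 4 of the 10 transcription factor genes and 3 of the 5 markers of other liver cells, against 22.6% of all placed coding genes. These lists are too short for a comparison with that share.

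Base content of the members was near that of peaks with H3K4me1 alone. IgG reads within 500 bp of the summit of member peaks had 42.0% G and C in the male list (9079 reads) and 42.2% in the female list (7290 reads), against 43.4% and 43.6% with H3K4me1 alone, 52.7% and 52.5% with H3K4me3, and 39.3% over all autosomal reads. The observed over expected ratio of CpG was 0.198 and 0.191, against 0.194 and 0.193 with H3K4me1 alone and 0.597 and 0.594 with H3K4me3, the set that holds CpG-rich promoters. Over all autosomal reads the CpG ratio was 0.178. On both measures the members lay close to peaks with H3K4me1 alone and below peaks with H3K4me3. The CpG ratios of members and of peaks with H3K4me1 alone also lay near that of all reads, so on CpG their likeness says little.

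Of 15 motifs searched, those of the liver factors HNF4, FOXA and C/EBP were picked for description after their values were seen. Their letters stood in smaller shares of member reads than of reads at peaks with H3K4me1 alone when all widths were taken. At matched width the intervals met. The HNF4 letters CAAAGTCCA, for a nuclear receptor that governs hepatocyte genes, stood in 4 of 9079 reads in the male list (0.044%, 0.012 to 0.113) and 7 of 7290 in the female list (0.096%, 0.039 to 0.198). Peaks with H3K4me1 alone had 0.168% (0.140 to 0.198) and 0.169% (0.140 to 0.201), and all autosomal reads 0.039%. The FOXA letters TGTTTAC, for the forkhead factors that open liver chromatin, stood in 0.562% of member reads in either list, against 0.745% and 0.734% with H3K4me1 alone and 0.533% of all reads. The C/EBP letters TTGCNNAA gave 1.34% and 1.48%, against 1.99% and 1.92%, with 1.53% of all reads. The intervals of members and of peaks with H3K4me1 alone stood apart for C/EBP in both lists and for HNF4 in the male list, and met for FOXA in both lists and for HNF4 in the female list. Among peaks of 1000 to 2000 bp no interval stood apart: C/EBP gave 1.26% (0.954 to 1.64) against 1.74% (1.59 to 1.89) in males and 1.44% against 1.73% in females, HNF4 gave 0.046% against 0.099% and 0.115% against 0.126%, and FOXA turned in males, at 0.782% against 0.734%. Reads of the 2 lists overlap where peaks do and come from 1 IgG library, so the sexes are not independent here.

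The PU.1 letters GAGGAAGT, for a factor of myeloid and B cells, stood in larger shares of member reads at all widths. They were found in 28 of 9079 reads (0.308%, 0.205 to 0.445) in the male list and 30 of 7290 (0.412%, 0.278 to 0.587) in the female list, against 0.171% (0.144 to 0.202) and 0.195% (0.164 to 0.229) with H3K4me1 alone, 0.211% and 0.234% with H3K4me3 and 0.168% of all reads. The intervals of members met those of peaks with H3K4me3 in both lists. At 1000 to 2000 bp they also met those of peaks with H3K4me1 alone, at 0.230% against 0.164% in males and 0.373% against 0.179% in females. These counts are small, and this motif was picked out of 15 after its values were seen. IRF letters gave 0.463% and 0.494%, near the 0.502% of all reads. The AP-1, STAT and STAT5 letters had intervals that met those of peaks with H3K4me1 alone in both lists.

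**Figure D5:**
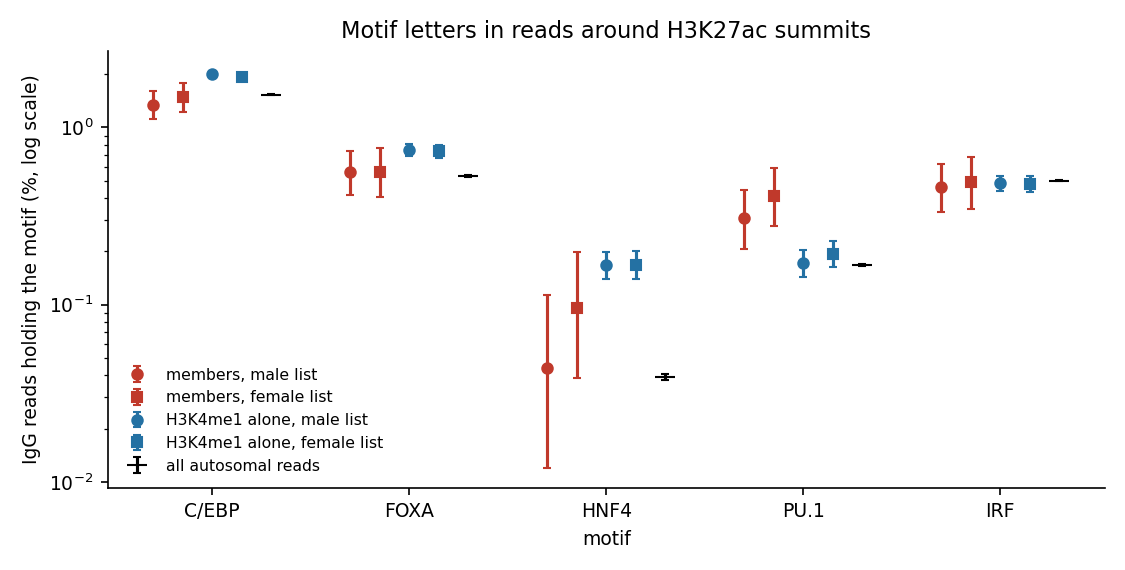
Share of 35-base IgG reads within 500 bp of H3K27ac summits that held the letters of a motif on either strand (%, log scale), with 95% Clopper-Pearson intervals; circles are male and squares female lists, and black dashes all autosomal reads. The 5 motifs were picked from 15 after their values were seen; member points lie below H3K4me1-alone points for C/EBP, FOXA and HNF4, with intervals that meet for FOXA and for female HNF4, and above them for PU.1 (0.308% and 0.412% against 0.171% and 0.195%). Widths are not matched here: at 1000 to 2000 bp the intervals meet for each of the 5 motifs and FOXA turns in males.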

How the data were processed

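ChIP-seq of CD-1 mouse liver was read from the deposited peak lists (MACS form for H3K27ac, H3K4me1 and H3K4me3, SICER islands for the other marks, per the file headers), in mm9; the submitters' processing notes name Bowtie and SICER 1.1, and the MACS version and the scaling of the sexes are not given in the sources used here. Deposited columns held the authors' tag counts, scores made from a p-value, fold enrichment ratios, false discovery rates in percent, log2 male over female ratios and p-values, and, in 1 IgG library, aligned read positions with their sequence. All 12 marks and sexes had 1 distinct list each, pooled over libraries, so no test between animals was run. Part of the deposited H3K27ac tag counts and scores is rounded to 3 significant digits. Counted here were overlaps of 1 bp or more, IgG reads by their middle base per kb over the autosomal mean (4.38), motif letters in reads after keeping 1 per position and strand, and exact Clopper-Pearson 95% intervals (scipy 1.17.1, Python 3.11.15). Tags within the listed H3K27ac peaks came to 12837285 in the female and 19253391 in the male list, which is not the depth of the libraries. Interval code was tested on simulated intervals. Members and lists were chosen with earlier results of these data known. Named regions are the 5 best-scoring peaks per sex, the 5 widest, the 5 of highest IgG density, the 3 highest and 3 lowest ratios among calls, the 3 largest groups and the peaks nearest the rule's edge; those in the closing observations, and the genes at starts, were chosen after their values were seen. Alternatives covered the distance to H3K4 peaks, which lists exclude, merging order, score and false discovery thresholds, overlap size, width, IgG counting and centring of ratios. IgG libraries of the study itself and gene bodies in mm9 were not analysed here, and 1 named region, among the best-scoring and widest, is not reported here.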

Additional observations from a re-analysis of the deposited data

How the results depend on the processing

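Of the alternatives tried, the number of regions depended most on the peak threshold: 4562 became 172 in the better-scoring 50% of each list and 0 at a false discovery rate of at most 1%. That rate was met by only 278 of 40903 male and 91 of 38306 female H3K27ac peaks of any kind. The number of regions became 7755 when only H3K4 lists of the same sex excluded a peak. The share on H3K36me3 moved from 35.2% to 33.5% with 50% of bases covered, to 29.8% with islands in both lists and to 26.7% in the better-scoring 50%; it stayed below that of regions with H3K4me1 alone in each of its 6 alternatives. With no H3K4 peak within 1 kb, the H3K27me3 share was 24.2% and the H3K9me3 share 7.55%; at 1000 to 2000 bp the H3K9me3 share was 5.16%. The share found in both H3K27ac lists was 35.4% with any partner, 21.5% in the better-scoring 50%, 33.3% at 1000 to 2000 bp and 23.0% in the worse-scoring 50%. The better-scoring 50% had median widths of 2829 bp (male) and 2476 bp (female) and 91.3 and 69.4 tags per kb. Relative IgG medians were 1.02 (male) and 0.987 (female) with 1 read per position and strand, and 1.005 and 0.959 in 5 kb. In the better-scoring 50% they were 1.0998 and 1.115. These medians stayed below those of H3K4me1 alone in each of these alternatives. In both the better-scoring and the worse-scoring 50% they lay above those of H3K4me3. Only for males in the worse-scoring 50% was that beyond the interval of the members' median. Centring the ratios gave 4 male-called members in the female list in place of 2, and with no H3K4 peak within 1 kb the 147 female-called members were 94. The causes were not tested. Alternatives on width for H3K27me3, H3K9me3 and sharing, on H3K4 distance for H3K27me3 and H3K9me3, on the worse-scoring 50% and on whole-peak motif counts were chosen after seeing the data. No paired analysis was possible because each mark and sex had 1 pooled list; for the same reason no replicate could be left out. Depth limits what a single member can show: a median of 57 male or 48 female tags, and about 4 IgG reads per kb.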

Other observations

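Other groups of 6 regions each sat in different chromatin. The group at chr6:121822853-121842379 came from the male list alone, with 683 male tags and no female member peak, in an interval of RefSeq's GRCm38.p6 order that holds Mug1, Mug2 and A2m, genes of the alpha-2-macroglobulin family of plasma protease inhibitors. All 6 of its regions lay on H3K36me3, no H3K4 peak of either sex lay inside the group, and IgG density within the regions was 1.89 times the autosomal mean, from 1.58 to 2.32. Ratios in the authors' deposited table ran from 0.01 to 0.66, with none past the size used for calls. The part of the raised IgG density in these peaks was not tested.

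The groups at chr10:92748562-92780786 and chr5:44244071-44273222 lay wholly on H3K27me3, with 177 male and 227 female tags in the first and 386 and 387 in the second. The first begins 0.843 kb beyond the start of Gm32551, in an interval with Lta4h and Hal, a histidine-degrading enzyme gene, and holds 1 H3K4me3 peak of each sex between its regions. The second lies in an interval with Bst1, Cd38 and Prom1. It also holds 1 H3K4me3 peak of each sex, and H3K9me3 covers 4.8 kb of it. The group at chr8:129268740-129291775, 60.8 kb from Gm31718, carried neither H3K36me3 nor H3K27me3, with 243 male and 294 female tags. By chromosome, members made up between 8.85% (chromosome 5) and 12.2% (chromosome 1) of all merged H3K27ac regions.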
